A study of Mus musculus with 4 samples.

Results

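A set of 10 transcription factors that direct the development and identity of group 2 innate lymphoid cells (ILC2s) was followed through RNA-Seq libraries labelled as mouse lung ILC2s, a label that the markers below do not bear out for all of the RNA. They were *Gata3*, *Rora*, *Id2*, *Bcl11b*, *Tcf7*, *Ets1*, *Gfi1*, *Nfil3*, *Tox* and *Zbtb16*. They were chosen by name from what is known of ILC2s, with earlier results of these data also known. All 10 were found among the 49315 genes of the count table. Of these, 9 carried their current name there, and *Bcl11b* was found by its Ensembl identifier because the table lists it under the older name Rit1.

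ILC2s are tissue-resident lymphocytes that lack antigen receptors. Alarmins, among them IL-33, drive them to release type 2 cytokines. They arise from a common lymphoid progenitor that gains the repressor Id2 and passes through a stage marked by the zinc finger protein PLZF, the product of *Zbtb16*. GATA3 and RORα then set the ILC2 program, and BCL11B and GFI1 keep the genes of other innate lymphoid cells silent. Most of these factors also act in T cells, so that their RNA does not mark ILC2s by itself.

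The study compared WT C57BL/6 mice with *Hps1*-/- mice, a model of Hermansky-Pudlak syndrome, after PBS or bleomycin, which injures the lung and leads to fibrosis. Lung cells enriched for innate lymphoid cells were sorted as Lineage-Thy1.2+ICOS+T1/ST2+ and cultured with IL-2 before RNA was extracted. The 4 groups had 1 library each, named PBS-WT and PBS-HPS1 after PBS and BLEO-WT and BLEO-HPS1 after bleomycin, and lists of 4 values keep this order. The libraries were made from 22405, 38873, 84166 and 128647 cells, and the number and age of the mice behind a library and the bleomycin route for these libraries are not given in the sources used here. Their total counts were 72513619, 77703133, 87638154 and 77428740. Levels are given as CPM, which relate each count to the size of its library after scaling with TMM factors, and 3 counts corresponded to 0.0336 to 0.0456 CPM. With 1 library per group no difference has a replicate check, and all 95% intervals are exact intervals that cover counting error only.

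The targeted gene was checked first. *Hps1* was at 38.2 CPM in WT and 18.5 in *Hps1*-/- mice with PBS, and at 45.5 and 20.5 with bleomycin. Both *Hps1*-/- libraries were lower than both WT libraries, with log2 ratios of -1.05 under PBS (95% interval -1.14 to -0.96) and -1.15 under bleomycin (-1.24 to -1.06). The counts do not show which part of the transcript the remaining reads came from.

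The labelled cell type was then set against its markers. *Thy1*, the most abundant of 30 ILC2 surface and effector genes, was at 306, 228, 210 and 529 CPM. Of the genes behind the sort, *Icos* was at 79.7, 85.9, 48.3 and 30.8 CPM and *Il1rl1*, which encodes T1/ST2, at 40.8, 44.3, 35.1 and 22.9 CPM. *Il9*, the lowest gene of that list, had 2, 4, 0 and 0 reads. The type 2 cytokine genes *Il5* and *Il13* were also low. *Il5* was at 0.589, 1.18, 0.276 and 0.396 CPM and *Il13* at 0.819, 1.59, 0.276 and 0.259 CPM. *Ptgdr2*, which encodes the receptor CRTH2, was at 0.665, 0.907, 0.540 and 0.289 CPM. Of the 30 genes, 26, 27, 25 and 25 were at 1 CPM or more. The sort used a lineage cocktail against CD3, CD11b, B220, Ly6G and Ly6C among others, which should remove T cells, B cells, neutrophils and many macrophages. All 16 T cell genes were at 1 CPM or more in every library. Per kilobase of the longest annotated transcript, *Cd3e* exceeded *Gata3* by 2.74-fold, 2.18-fold, 3.51-fold and 6.31-fold. With the median transcript length, chosen after seeing the data, the level of *Cd3e* was 1.12, 0.890, 1.43 and 2.57 times that of *Gata3*, so that it was not above *Gata3* in PBS-HPS1. *Lyz2*, a lysozyme gene of macrophages, exceeded *Gata3* with the longest transcripts by 600-fold, 380-fold, 1280-fold and 1120-fold, and with the median length by 60.2-fold in PBS-HPS1 up to 203-fold in BLEO-WT. These levels go against a label of ILC2s alone, so the genes are called here the 10 transcription factors, and the share of their reads that came from ILC2s was not tested. In bulk RNA, fewer cells of a type and less RNA per cell cannot be told apart.

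All 10 transcription factors were detected in all 4 libraries. Together they summed to 1460 CPM in WT and 1630 in *Hps1*-/- mice with PBS, and to 1390 and 1150 with bleomycin. The sum was highest in PBS-HPS1 and lowest in BLEO-HPS1. Levels between genes were compared per kilobase of the longest transcript. *Nfil3* led on this scale in every library, with 125, 140, 174 and 137 CPM per kilobase, and *Tcf7*, *Ets1* and *Id2* held the next ranks. *Bcl11b* and *Gata3* stood in the middle, at 14.3 and 11.9 CPM per kilobase in PBS-WT, and changed places in both *Hps1*-/- libraries. *Rora*, *Zbtb16*, *Tox* and *Gfi1* were lowest, and *Rora* was at 5.86 CPM per kilobase in PBS-WT and 1.17 in BLEO-HPS1. Counting intervals of neighbours in this order overlapped for *Gfi1* and *Tox* in PBS-HPS1 and for *Tox*, *Gfi1* and *Zbtb16* in BLEO-HPS1. The order depended on the transcript used, since with the median transcript length *Ets1* led in 3 libraries, at 252 CPM per kilobase in PBS-WT, and in BLEO-HPS1 *Ets1* and *Tcf7* were both at 148 with overlapping intervals. *Rora* was then at 58.7 CPM per kilobase in PBS-WT and 80.1 in PBS-HPS1, above *Bcl11b* at 40.3 and 35.5. In both bleomycin libraries *Rora* stayed below *Bcl11b*, and above *Zbtb16*, *Tox* and *Gfi1*.

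**Figure D1:**
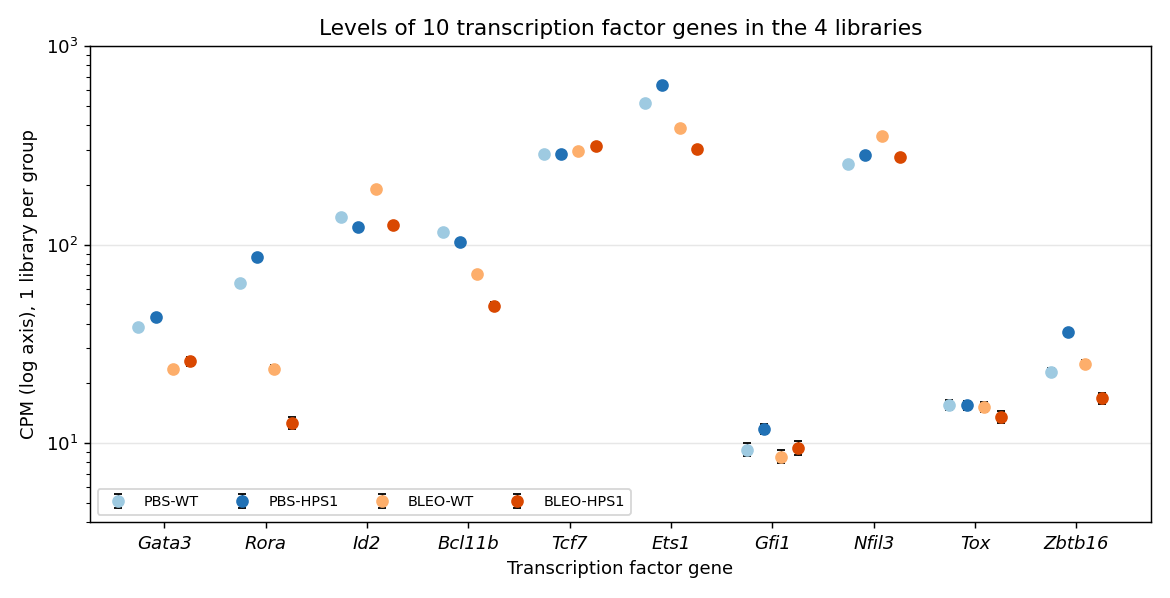
CPM of the 10 transcription factor genes on a log axis, with 1 point per library and bars for the exact 95% Poisson interval of the counts. *Rora* runs from 87.0 CPM in PBS-HPS1 to 12.7 in BLEO-HPS1, whereas *Tcf7* stays between 285 and 312 CPM.

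The factors that set the ILC2 program came first. *Gata3* (ENSMUSG00000015619, minus strand of chr2:9857078-9890034 in GRCm38) encodes the zinc finger factor required for ILC2 development and for type 2 cytokine genes. It was at 38.3 CPM in WT and 43.3 in *Hps1*-/- mice with PBS, and at 23.6 and 25.8 with bleomycin. Both bleomycin libraries were lower than both PBS libraries, and within a treatment the genotypes were close. *Rora* (ENSMUSG00000032238, plus strand of chr9:68653786-69388246) encodes the nuclear receptor RORα, without which few ILC2s form. It was at 63.8 CPM in WT and 87.0 in *Hps1*-/- mice with PBS, and at 23.7 and 12.7 with bleomycin. *Rora* thus had its highest level in PBS-HPS1 and its lowest in BLEO-HPS1, a 6.86-fold range that was the widest of the 10 genes in CPM. Corrected for transcript length and GC content, the log2 ratio between these 2 libraries fell from -2.78 to -0.70, and those of *Zbtb16*, *Gfi1*, *Gata3* and *Nfil3* were then larger in size.

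Factors shared with the T cell lineage followed. *Bcl11b* (ENSMUSG00000048251, minus strand of chr12:107910403-108003602) maintains ILC2 identity and commits T cell precursors. It was at 116 CPM in WT and 103 in *Hps1*-/- mice with PBS, and at 71.4 and 49.3 with bleomycin. Both bleomycin libraries were again below both PBS libraries, and BLEO-HPS1 was lowest. *Tcf7* (ENSMUSG00000000782, minus strand of chr11:52252371-52283014) encodes TCF-1, which acts upstream of *Gata3* in early ILC2s. It was at 285 CPM in WT and 285 in *Hps1*-/- mice with PBS, and at 296 and 312 with bleomycin, a 1.10-fold range that was the narrowest of the 10. *Ets1* (ENSMUSG00000032035, plus strand of chr9:32636221-32757820), which takes part in ILC2 expansion, was at 514, 638, 386 and 302 CPM. *Ets1* and *Rora* shared the same ranking of libraries in CPM, from PBS-HPS1 down to BLEO-HPS1, but the step from BLEO-WT to BLEO-HPS1 was 0.05 for *Ets1* and -0.04 for *Rora* after the correction.

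Factors of the early progenitor stages were less uniform. *Id2* (ENSMUSG00000020644, minus strand of chr12:25093799-25097140) encodes an inhibitor that binds E proteins and diverts progenitors from the T and B cell fates. It was at 138 CPM in WT and 123 in *Hps1*-/- mice with PBS, and at 190 and 126 with bleomycin. BLEO-WT was the high library and the other 3 were close to each other. *Nfil3* (ENSMUSG00000056749, minus strand of chr13:52967209-52981073), a basic leucine zipper factor that acts upstream of *Id2*, was at 253, 283, 352 and 277 CPM. As for *Id2*, BLEO-WT was highest. *Zbtb16* (ENSMUSG00000066687, minus strand of chr9:48654297-48836222) was at 22.9, 36.3, 25.1 and 16.8 CPM. PBS-HPS1 stood above and BLEO-HPS1 below the WT libraries, which were close to each other.

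*Tox* and *Gfi1* were low in CPM in every library. *Tox* (ENSMUSG00000041272, minus strand of chr4:6686353-6991557), an HMG box factor of early innate lymphoid progenitors, was at 15.6 CPM in WT and 15.5 in *Hps1*-/- mice with PBS, and at 15.3 and 13.6 with bleomycin. *Gfi1* (ENSMUSG00000029275, minus strand of chr5:107716657-107726036), a repressor that sustains *Gata3* in ILC2s, was at 9.28, 11.8, 8.55 and 9.49 CPM. *Tox* was lowest in BLEO-HPS1 and *Gfi1* highest in PBS-HPS1, both within a 1.38-fold range.

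Genotype under PBS was compared first. No transcription factor differed at least 2-fold between PBS-HPS1 and PBS-WT, where 3.58% of the 15006 genes compared were higher by 2-fold or more and 2.38% lower. The median log2 ratio of the 10 was 0.17, beside -0.03 for all genes compared. *Zbtb16* had the largest log2 ratio, 0.66 (95% interval 0.58 to 0.75), followed by *Rora* at 0.45 (0.40 to 0.50), *Gfi1* at 0.34 (0.20 to 0.48) and *Ets1* at 0.31 (0.29 to 0.33). *Bcl11b* was at -0.18 and *Id2* at -0.17, and the intervals of *Tcf7* and *Tox* included 0. After a loess correction for transcript length and GC content, the log2 ratio was 0.55 for *Zbtb16*, -0.44 for *Bcl11b* and 0.14 for *Rora*. With TMM factors from all genes with a read, 44.7% of the genes called in either direction were higher in PBS-HPS1, against 60.1% with the main factors, and the log2 ratio of all genes shifted by -0.15.

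Bleomycin was then compared with PBS in WT mice. Of the 10 transcription factors, 1 was at least 2-fold lower in BLEO-WT than in PBS-WT and 0 were at least 2-fold higher, beside 9.84% lower and 4.31% higher among all genes compared. That gene was *Rora*, with a log2 ratio of -1.43 (95% interval -1.50 to -1.35). *Gata3* was at -0.70 (-0.78 to -0.62) and *Bcl11b* at -0.70 (-0.75 to -0.66). None of the other 9 reached 2-fold. *Nfil3* was at 0.48 (0.45 to 0.50) and *Id2* at 0.46 (0.43 to 0.50), and both stayed above 0 under every scaling and after the GC and length correction. The median of the 10 was -0.07, beside 0.00 for all genes. With total counts the log2 ratio of all genes shifted by -0.18 and 19.1% of called genes were higher, against 30.5% with the main factors. *Rora* has a longest transcript of 10878 bases with 40.9% GC, and genes of that length and composition had a log2 trend of -0.88 in this comparison. Corrected for the trend, *Rora* was at -0.55 and no longer 2-fold lower, while *Gata3* was at -0.73 and *Bcl11b* at -0.59.

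The same comparison was made in *Hps1*-/- mice. Of the 10, 4 were at least 2-fold lower in BLEO-HPS1 than in PBS-HPS1 and 0 were at least 2-fold higher, beside 24.6% lower and 19.3% higher among all genes compared. The 4 were *Rora* with a log2 ratio of -2.78 (95% interval -2.88 to -2.67), *Zbtb16* with -1.11 (-1.22 to -1.02), *Ets1* with -1.08 (-1.10 to -1.06) and *Bcl11b* with -1.06. The interval of *Bcl11b* began at -1.11 and ended next to the 2-fold threshold. *Gata3* was at -0.74 (-0.83 to -0.66), with 30.3% of all genes below it. *Gfi1* was at -0.31, *Tox* at -0.19, *Nfil3* at -0.03, *Id2* at 0.04 and *Tcf7* at 0.13. The median of the 10 was -0.53, beside 0.00 for all genes, and -0.56 beside 0.04 with the GC and length correction.

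The size of these ratios depended on the scaling and on the composition of the transcripts. With total counts in place of TMM factors, the log2 ratio of all genes shifted by a median of -0.44 in this comparison and 20.8% of called genes were higher, against 44.0% with the main factors. Under that scaling 5 of the 10 were at least 2-fold lower, beside 34.5% of all genes, with *Gata3* at -1.18, and *Id2* and *Tcf7* changed sign, to -0.40 and -0.31. With TMM factors from all genes with a read, the shift was 0.21, 55.4% of called genes were higher, and *Rora* alone of the 10 was at least 2-fold lower, beside 20.5% of all genes. After the GC and length correction *Zbtb16* alone was, at -1.24, beside 12.9% of all genes, while *Rora* was at -0.70, *Ets1* at -0.41 and *Bcl11b* at -0.17. *Gata3* changed little with that correction, from -0.74 to -0.79. *Nfil3* and *Gfi1*, with 54.5% and 57.4% GC, moved the other way, to -0.79 and -0.93. The correction turned the sign of *Tox*, from -0.19 to 0.53, and of *Tcf7*, from 0.13 to -0.34.

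**Figure D2:**
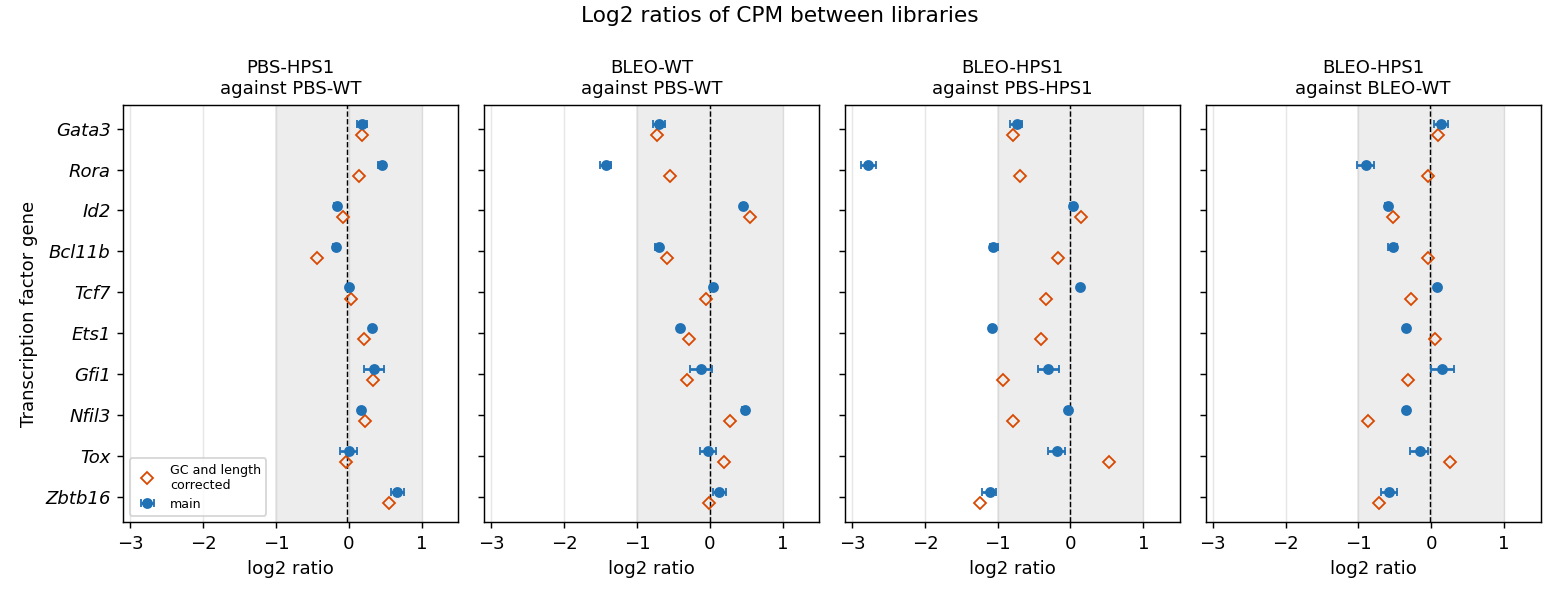
Log2 ratios of CPM for the 10 transcription factor genes in 4 comparisons of single libraries. Filled circles are the main values with exact 95% intervals, open diamonds the values after GC and length correction, the grey band spans ratios under 2-fold, and the dashed line is the median of the 15006 genes compared. *Rora* in BLEO-HPS1 against PBS-HPS1 moves from -2.78 to -0.70 with the correction.

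Between the bleomycin libraries, no transcription factor differed at least 2-fold, beside 7.08% of all genes compared that were higher by that much in BLEO-HPS1 and 9.48% that were lower. *Rora* came nearest, with a log2 ratio of -0.90 (95% interval -1.02 to -0.78), and with total counts it was at least 2-fold lower, at -1.06, beside 14.8% of all genes. *Id2* was at -0.59 (-0.63 to -0.56), *Zbtb16* at -0.58 (-0.69 to -0.47), *Bcl11b* at -0.53 (-0.60 to -0.47) and *Nfil3* at -0.35 (-0.37 to -0.32). *Gfi1* was at 0.15 (-0.01 to 0.31), *Gata3* at 0.13 (0.04 to 0.23) and *Tcf7* at 0.08 (0.05 to 0.10), and all 3 fell below 0 with total counts, under which the log2 ratio of all genes shifted by -0.16 and 24.9% of called genes were higher against 42.8% with the main factors. The median of the 10 was -0.35, beside -0.02 for all genes, and -0.17 beside -0.05 with the GC and length correction. After the GC and length correction *Nfil3* was farthest from 0, at -0.87, and *Rora* was at -0.04, *Bcl11b* at -0.05, *Id2* at -0.52 and *Zbtb16* at -0.72. The correction turned the sign of *Gfi1*, to -0.32, of *Tcf7*, to -0.28, of *Ets1*, from -0.35 to 0.05, and of *Tox*, from -0.16 to 0.26.

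Bleomycin and PBS libraries were also compared within each genotype and the log2 ratios set side by side, with the WT value subtracted from the *Hps1*-/- value. Of the 10 transcription factors, 2 had a difference of -1 or less and 0 a difference of 1 or more, beside 14.8% and 12.3% of all genes compared. They were *Rora*, with -1.35, and *Zbtb16*, with -1.24. The difference of *Zbtb16* was also -1.24 after the GC and length correction, whereas that of *Rora* was -0.15. For *Gata3* the difference was -0.05, and its log2 ratios of -0.70 in WT and -0.74 in *Hps1*-/- mice had overlapping intervals. After the correction *Nfil3* had a difference of -1.06, against -0.51 before. Every library enters 2 of the 4 comparisons, so their values are not independent of each other. With total counts 23.9% of genes with a difference of at least 1 in size were higher, and with TMM factors from all genes with a read 57.6%, against 45.3% with the main factors.

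Relatives of the 10 factors from the same protein families were counted beside them. Of 24 relatives 22 were compared, and in BLEO-HPS1 against PBS-HPS1 4 were called higher and 3 lower, beside 19.3% and 24.6% of all genes, with a median log2 ratio of -0.05. After the GC and length correction 1 relative was higher and 6 were lower, beside 1799 and 1940 of the 14981 genes that could be corrected. *Tcf7l2*, a relative of *Tcf7*, was at 61.4, 68.2, 31.6 and 16.8 CPM, and so was at least 2-fold lower in BLEO-HPS1 than in PBS-HPS1, where *Tcf7* was not. *Ets2*, the most abundant relative, was at 239, 306, 382 and 214 CPM, and BLEO-WT was its highest library, unlike for *Ets1*. In BLEO-WT against PBS-WT 1 relative was at least 2-fold higher and 1 lower, beside 4.31% and 9.84% of all genes.

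Among 37 other lymphoid transcription factors, 16 were at least 2-fold lower and 1 at least 2-fold higher in BLEO-HPS1 than in PBS-HPS1, beside 24.6% and 19.3% of all genes. Their median was -0.88, and after the GC and length correction 2 were lower and 1 was higher, beside 1940 and 1799 of 14981 genes, and the median was -0.22. Beside *Rora*, the Helios gene *Ikzf2* was at 25.2, 28.6, 9.76 and 4.61 CPM, and the correction moved its log2 ratio in that comparison from -2.63 to -0.54. *Nr4a1*, an early response gene and the most abundant of that list, was at 973, 1090, 1530 and 1220 CPM. Of 29 ILC2 surface and effector genes compared, 10 were at least 2-fold lower and 7 higher in BLEO-HPS1 than in PBS-HPS1, beside 24.6% and 19.3% of all genes, with a median of -0.06. *Il7r*, the receptor gene of the ILC survival factor IL-7, was at 179, 228, 140 and 73.9 CPM, and ranked the libraries as *Rora* and *Ets1* did. Its log2 ratio in BLEO-HPS1 against PBS-HPS1 was -1.62 and, after the correction, -0.51.

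Markers of other cells also differed between the libraries in which the transcription factors differed, and their part in these results was not tested. The 16 T cell genes summed to 1330 CPM in WT and 1190 in *Hps1*-/- mice with PBS, and to 1130 and 2070 with bleomycin. *Trbc2* was the most abundant of them as a mean of the 4 libraries, as are the genes named for the lists that follow. The sum was highest in BLEO-HPS1, where *Bcl11b* and *Ets1*, both also T cell factors, were lowest. *Tcf7*, another T cell factor, was highest in that library, at 312 CPM. After the GC and length correction *Bcl11b* was at -0.05 and *Ets1* at 0.05 in BLEO-HPS1 against BLEO-WT. In BLEO-HPS1 against PBS-HPS1 the median of all 16 genes was 0.86, and 13 of them had a log2 ratio above 0. Of these 4 were at least 2-fold higher, among them *Cd6* at 1.47 and *Trbc2* at 1.09, and the other 3 were at least 2-fold lower, *Cd28* at -1.92, *Themis* at -2.06 and *Trat1* at -2.17, beside 19.3% and 24.6% of all genes. After the GC and length correction 4 were higher and 0 lower, beside 1799 and 1940 of 14981 genes, with a median of 0.34. *Cd6* was then at 2.03, whereas *Trbc2* was at 0.06 and no longer 2-fold higher. The 15 macrophage and monocyte genes, with *Lyz2* most abundant, summed to 17100, 13900, 24400 and 22800 CPM. That sum was larger in both bleomycin libraries, in which *Gata3*, *Rora* and *Bcl11b* were lower. In BLEO-HPS1 against PBS-HPS1 7 of the genes were at least 2-fold higher and 4 lower, beside 19.3% and 24.6% of all genes. The median of the 15 was 0.81, and 0.39 after the GC and length correction. With that correction 5 were higher and 4 lower, beside 1799 and 1940 of 14981 genes. The 12 fibroblast genes (*Col1a1*) summed to 348, 572, 715 and 3150 CPM, and 10 genes of that list rose by 2-fold or more from PBS-HPS1 to BLEO-HPS1, beside 19.3% of all genes, and 7 after the GC and length correction, beside 1799 of 14981 genes. The 11 NK cell and ILC1 genes (*Gzma*) summed to 277, 406, 134 and 442 CPM. From PBS-HPS1 to BLEO-HPS1 *Gzma* went from 96.9 to 135 CPM and *Nkg7* from 65.9 to 125. In that comparison 4 of the 11 were at least 2-fold lower and 0 higher, beside 24.6% and 19.3% of all genes. The median of the 11 was -0.23, so the sum rose while most of its genes did not. Sums were 257, 250, 178 and 431 CPM for 10 B and plasma cell genes (*Cd22*). For 6 ILC3 genes (*Cxcr5*) they were 58.4, 42.6, 34.1 and 48.5 CPM. Of these 6, 2 were at least 2-fold lower and 0 higher in BLEO-HPS1 than in PBS-HPS1, beside 24.6% and 19.3% of all genes. Their median was -0.56, and only *Cxcr5* had a log2 ratio above 0, from 16.5 to 33.1 CPM. The 9 neutrophil genes (*S100a9*) summed to 1480, 456, 777 and 360 CPM, and 11 mast cell, basophil and eosinophil genes (*Siglecf*) to 239, 196, 53.0 and 36.4 CPM. The latter sum was lower in both bleomycin libraries, and *Siglecf* held 186 of its 239 CPM in PBS-WT. Of the 10 genes compared, 7 were at least 2-fold lower in BLEO-WT than in PBS-WT, beside 9.84% of all genes. In BLEO-HPS1 against PBS-HPS1 8 were, beside 24.6%, whereas *Cma1* was at 0.07. *Gata3*, which mast cells and basophils can also express, was also lower in both bleomycin libraries. The 11 endothelial genes (*Vwf*) summed to 976, 1030, 1000 and 1380 CPM, and 12 epithelial genes (*Sftpc*) to 1420, 1180, 862 and 640 CPM. *Sftpc* alone was at 814, 597, 322 and 178 CPM. Of the 12 epithelial genes, 4 were at least 2-fold lower and 1 higher in BLEO-HPS1 than in PBS-HPS1, beside 24.6% and 19.3% of all genes. Their median was -0.30, and 6 had a log2 ratio above 0. After the GC and length correction 6 were lower and 0 higher, beside 1940 and 1799 of 14981 genes, with a median of -0.92. No listed marker had 3 reads or fewer in every library.

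**Figure D3:**
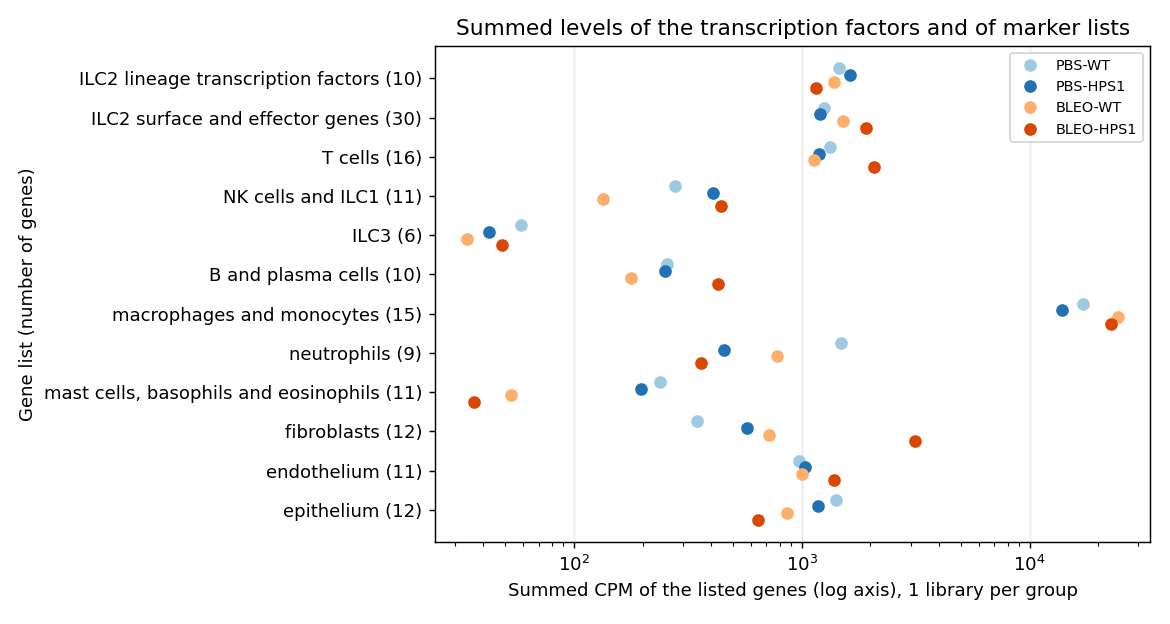
Summed CPM on a log axis of the 10 transcription factors, the ILC2 surface and effector genes and 10 lists of markers of other cells, with the number of genes in brackets and 1 point per library. The transcription factors lie between 1150 and 1630 CPM and the macrophage and monocyte genes between 13900 and 24400 CPM.

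The genes most like *Gata3* over the 4 libraries were *Ghr*, *Col27a1*, *Slamf1*, *Parp16* and *Cdon*, at distances of 0.0560 to 0.105 between log2 CPM centred on each gene's mean. Likeness was ranked over 11145 genes with a mean log2 CPM above 2. *Ghr*, the growth hormone receptor gene, was at 8.92, 9.76, 5.25 and 6.01 CPM. *Slamf1*, a lymphocyte surface receptor gene, was at 11.6, 13.7, 7.76 and 7.77 CPM. Among the other transcription factors *Ets1* came closest to *Gata3*, at rank 199, then *Gfi1* at 819 and *Bcl11b* at 1077, and *Rora* was farthest, at 9301.

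Antisense or overlapping genes lay within 6 of the 10 genes, and whether the counting used strand is not given in the sources used here. The overlapping genes had at most 130 reads in a library, for the antisense *A630014C17Rik* in *Tcf7*, where *Tcf7* had 25417. Relative to its member the overlap weighed more in *Gfi1*, where *A430072P03Rik* on the opposite strand had 97 reads in PBS-HPS1 and *Gfi1* had 1050.

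Promoters were read because *Rora* and *Bcl11b* were both at least 2-fold lower in BLEO-HPS1 than in PBS-HPS1, which held for neither after the GC and length correction. RefSeq promoters (GRCm38.p6) were matched for 7 of the 10 genes, *Gata3*, *Rora*, *Id2*, *Bcl11b*, *Tcf7*, *Gfi1* and *Nfil3*. The windows precede RefSeq's transcript starts, which can differ from the GENCODE gene ends given above, so that the *Bcl11b* window lies partly and the *Gata3* window wholly within the gene range. The 250 bases before the start of *Rora* (plus strand, chr9:68653536-68653785) and of *Bcl11b* (minus strand, chr12:108003415-108003664) read as follows, 5′ to 3′, with capitals for motif matches.
Rora: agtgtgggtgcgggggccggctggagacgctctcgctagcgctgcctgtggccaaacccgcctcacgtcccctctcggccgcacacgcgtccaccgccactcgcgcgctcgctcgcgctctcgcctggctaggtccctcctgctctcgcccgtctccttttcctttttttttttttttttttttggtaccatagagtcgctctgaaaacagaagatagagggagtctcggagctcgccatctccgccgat
Bcl11b: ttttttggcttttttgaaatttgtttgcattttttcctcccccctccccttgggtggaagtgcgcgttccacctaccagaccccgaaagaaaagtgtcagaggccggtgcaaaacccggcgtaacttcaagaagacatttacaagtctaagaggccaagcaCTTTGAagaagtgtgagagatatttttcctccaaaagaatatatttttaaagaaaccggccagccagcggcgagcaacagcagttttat
Motifs were searched on both strands as GATAA for GATA factors, AGGTCA for ROR, CAGNTG for E proteins, CCGGAA for ETS, CTTTGA for TCF and TTANGTAA for NFIL3. The *Rora* window held none of these, and the *Bcl11b* window held 1 match, to CTTTGA. Of all 32536 promoter windows of that length, 22.5% held GATAA, 14.0% AGGTCA, 44.8% CAGNTG, 12.1% CCGGAA, 13.9% CTTTGA and 2.03% TTANGTAA. In the *Gata3* window the search found 1 match, to CCGGAA. A match describes letters only and is not a binding site.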

How the data were processed

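The authors deposited a table of counts, reads assigned to each Ensembl gene and not normalized, for 49315 genes, 37499 of them with a read. A SMARTER mRNA kit was used for the libraries, and the aligner, counting tool and build are not given in the sources used here. Genes were matched by Ensembl identifier to GENCODE M21 (GRCm38), where 48970 were found, since 260 names in the table differed from the current symbol. The members and the gene lists were chosen with earlier results of these data known.

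TMM factors (edgeR 4.0.16, R 4.3.3) scaled the library sizes and were computed on the 15006 genes that reached 1 CPM in some library. The factors were 1.08, 1.15, 0.951 and 0.849 for PBS-WT and PBS-HPS1, then BLEO-WT and BLEO-HPS1, against 1.08, 1.27, 0.895 and 0.816 without the filter. Log2 CPM used a prior count of 2. A gene was called where its log2 ratio was 1 or more, or -1 or less. Intervals are exact at 95%, Poisson for levels and Clopper-Pearson for ratios. They cover counting error only and treat every read as independent, which PCR copies are not. A floor of 3 reads was used to mark listed genes with few reads and did not enter the intervals. No p-value was computed. The scaling, the ratios and their intervals were tested on simulated Poisson counts with changes planted in 1 library. The simulation held no trend with length or GC content, and the loess correction was not tested on it.

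Alternatives were DESeq2 1.42.0 size factors, total counts, a prior count of 0.5 or 10, TMM factors from all genes with a read, a filter of 10 counts in every library, a loess fit (span 0.3) that removed the trend with length and GC content of the longest transcript and a 1.5-fold threshold. The median transcript length was added for the order of the members and for *Cd3e* and *Lyz2* over *Gata3* after the data were seen. Named genes were the 10 members, the 5 genes nearest to *Gata3*, the most abundant gene of each list, and up to 4 called genes per list with the largest ratio and at least 10 CPM in the higher library, of which only some are described. *Cd3e*, *Icos*, *Il1rl1*, *Il5*, *Il9*, *Il13*, *Ptgdr2*, *Cma1* and *Hps1* were named outside this rule, as were the overlapping genes, after their values were seen.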

Additional observations from a re-analysis of the deposited data

Results flagged for a closer look

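The log2 ratios of bleomycin to PBS had opposite signs in the 2 genotypes for *Nfil3* and *Zbtb16*, and the difference was not tested because each group had 1 library. The log2 ratio of *Nfil3* was 0.48 in WT and -0.03 in *Hps1*-/- mice. The interval of the latter, -0.06 to 0.00, ended next to 0. In *Hps1*-/- mice the *Nfil3* ratio was 0.18 with TMM factors from all genes with a read, -0.47 with total counts and -0.79 after the GC and length correction, beside 0.56, 0.30 and 0.28 in WT mice, so its sign in *Hps1*-/- mice depended on the scaling. The log2 ratio of *Zbtb16* was 0.13 in WT and -1.11 in *Hps1*-/- mice. In WT mice the *Zbtb16* ratio was -0.05 with total counts and -0.01 after the GC and length correction, so its sign in WT mice depended on these settings.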

How the results depend on the processing

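At a 1.5-fold threshold, 1 transcription factor was higher in PBS-HPS1 than in PBS-WT (0 at 2-fold), beside 9.44% of all genes, 3 were lower in BLEO-WT than in PBS-WT (1 at 2-fold), beside 19.8%, and 2 were lower in BLEO-HPS1 than in BLEO-WT (0 at 2-fold), beside 24.5%. With total counts, 1 was lower in BLEO-HPS1 than in BLEO-WT, beside 14.8%. With TMM factors from all genes with a read, 1 of the 4 was lower in BLEO-HPS1 than in PBS-HPS1, beside 20.5%. After the GC and length correction, 0 were lower in BLEO-WT than in PBS-WT, beside 6.92%, and 1 in BLEO-HPS1 than in PBS-HPS1, beside 12.9%. The cause of these shifts was not tested. The other counts were within 1.5 times the main count. No called value of a single gene changed sign. Of the 50 values of single genes, taken before rounding, 13 changed sign after the GC and length correction, which moved a value by up to 2.08, 10 with total counts (up to 0.44) and 4 without the filter (up to 0.21). No value changed sign with DESeq2 size factors, other prior counts or at least 10 counts in every library, and the largest shift among these was 0.04. No paired analysis was possible because each group had 1 library. The spread between mice is unknown, and the counting intervals do not measure it.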
